A study of Mus musculus with 21 samples.

Results

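The 43 genes described here encode the glycolytic pathway, its glucose and lactate carriers, the kinases that steer pyruvate, and the hypoxia-inducible factors (HIFs) with a set of their targets. They were taken by gene symbol from a table of 22050 genes and transcripts, each had 1 row there, and all 43 were among the 12782 genes with a mean value high enough to test. The mRNA of sorted GFP+ epidermal keratinocytes of mice was sequenced. Controls were of the genotype K5-rtTA/tet-GFP. The p16 group was of the genotype K5-rtTA/tet-p16/tet-GFP, where doxycycline turns on human p16 along with GFP. Both groups carried the rtTA activator and the GFP reporter, were brothers, as the methods state for long inductions, and both drank doxycycline from 3 weeks of age for 6 months. The lines that were crossed were of mixed C57Bl6 and 129sv or of FVB background. The keratin 5 promoter drives the activator, which allows induction in the basal epidermis. The paper detected p16 protein in only a part of the interfollicular cells. Each sample held 80000 cells pooled from 3 mice, after fibroblasts, immune cells and endothelial cells had been gated out by CD140a, CD45 and CD31. There were 4 samples a group. p16, the product of CDKN2A, inhibits the kinases that drive cells into S phase, and the study asked what its long expression does to the epidermis.

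Glycolysis turns glucose into pyruvate, and lactate dehydrogenase then exchanges pyruvate with lactate, which leaves or enters the cell through monocarboxylate carriers. When oxygen is plentiful, prolyl hydroxylases mark the HIF alpha subunits for destruction by the von Hippel-Lindau protein. When it is scarce, HIF alpha subunits persist, pair with ARNT and activate genes of glucose uptake, glycolysis, vessel growth and mitochondrial removal. The epidermis has no vessels of its own and is mildly hypoxic, and its keratinocytes make much of their energy by glycolysis.

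None of the 43 genes was higher in p16 cells at the threshold used, an adjusted p under 0.05 by limma over all genes tested, and 1 was lower, the lactate carrier Slc16a1. Over all 12782 genes tested, 1.24% were called higher and 2.61% lower. At an unadjusted p under 0.05, 8 members were higher (Gpi1, Pfkfb3, Egln1, Egln3, Vegfa, Bnip3, Ddit4 and P4ha2), which is 18.6% of them, beside 7.02% of all genes tested. Another 5 were lower at that level (Ldhb, Slc16a1, Pdk4, Epas1 and Adm), which is 11.6%, beside 8.93% of all genes tested. The values of the groups did not overlap for 2 members that were higher, Vegfa and P4ha2, and for 4 that were lower, Ldhb, Slc16a1, Pdk4 and Adm. Over all genes tested, 4.19% were higher and 5.63% lower without overlap. The median log2 fold change of the 43 genes was 0.10, beside 0.00 over all genes tested. Most glycolytic enzymes lay near 0, and the genes with the widest differences belonged to lactate handling, the regulators of the pathway and the HIF targets.

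**Figure D1:**
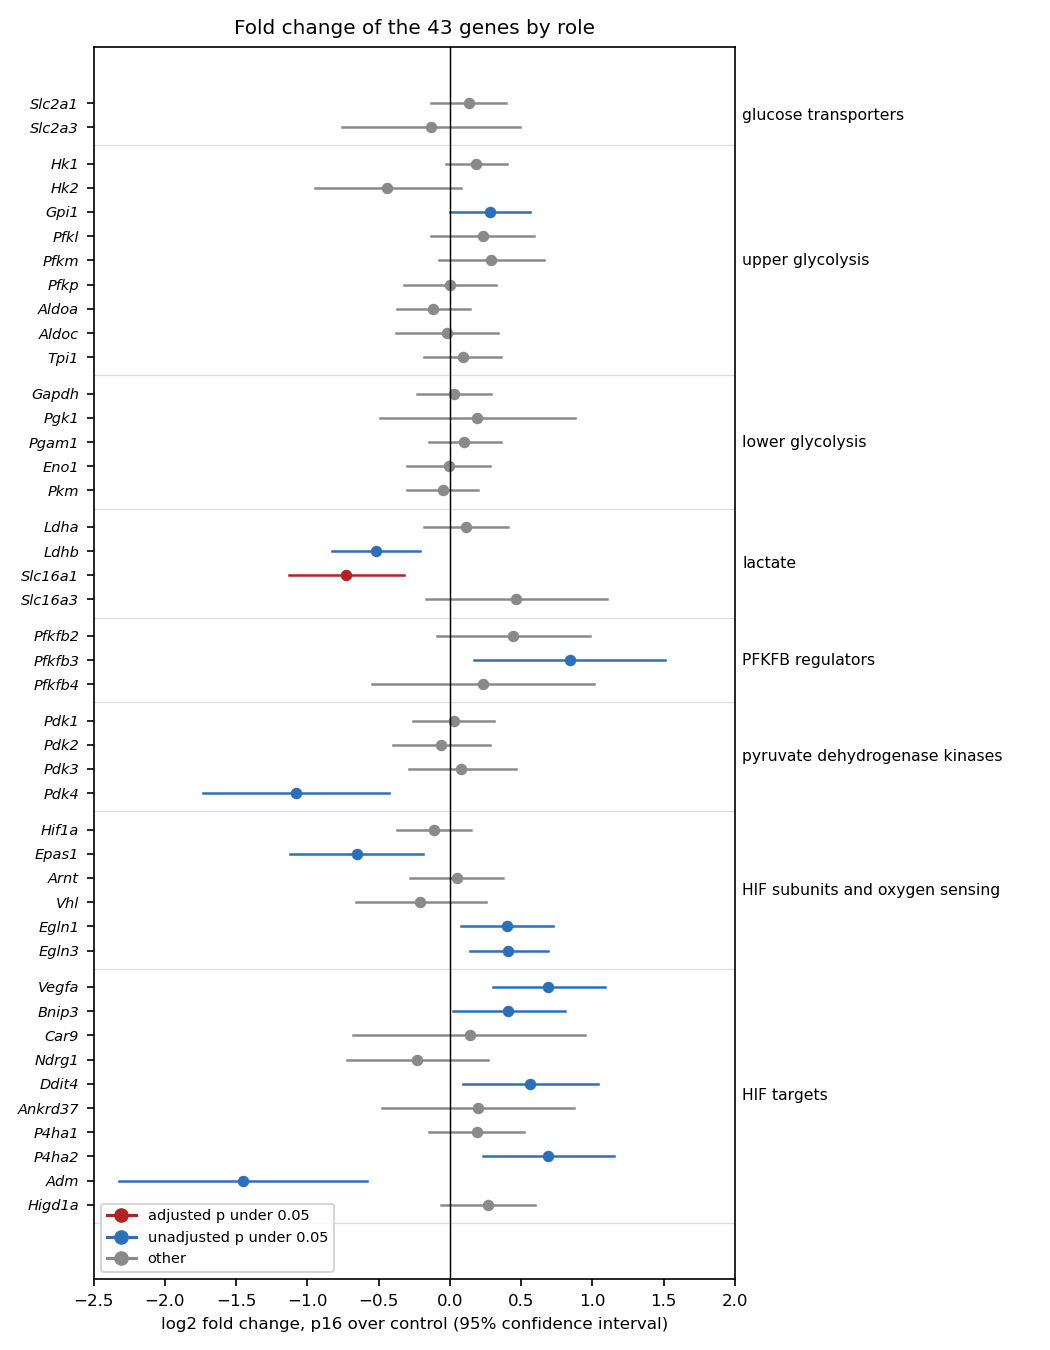
Log2 fold change of each of the 43 genes (x axis, p16 over control, on the log2(normalized value + 1) scale) with its 95% confidence interval from limma, grouped by role. Slc16a1, in red, is the single gene with an adjusted p under 0.05, 12 further genes in blue have an unadjusted p under 0.05, and the glycolytic enzymes cluster around 0.

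Facts about the libraries bear on these values. Between 1760953 and 3414362 reads fell on genes in a control library, and between 2884544 and 3202975 in a p16 library. The human p16 transgene, listed as hsCDKN2A, stood at 0.7, 1.3, 2.5 and 1.5 normalized units in the control libraries and at 1.6, 10.1, 16 and 7.4 in the p16 libraries, each in the order of replicates 1 to 4, so the library labelled p16 replicate 1 lay within the control range. There 1 read is worth 0.80 units, and 0.74 to 1.53 in the control libraries, so the comparison rests on few reads. In Cd34, a hair-follicle stem cell marker, that library had 8.8 and the other p16 libraries 8.0 to 16.4, against 121.9 to 238.9 in controls. The GFP reporter used for sorting, listed as EGFP, was at 4152.0 to 5912.6 in control and 3161.8 to 3978.8 in p16 libraries. It was called lower (log2 fold change -0.58, adjusted p by limma = 0.0167), and what this means for the sorted cells was not tested. p16 replicate 4 stood apart from the rest of its group, and it had the highest Thy1 (2908.2), Krt1 (3008.5) and Krt10 (4811.6) and the lowest Fos (98.7) of all 8 libraries. Not all genes of the same marker lists followed. In that library the differentiation gene Dsg1a (550.9) was at its lowest of all 8, and the T cell gene Cd3d (7.4) was below every control. The stress gene Ier3 (208.8) was above the other p16 libraries. Keratinocyte identity was plain, with Krt5 between 9045.9 and 17968.5 in every library. Defining markers of endothelial cells (Cdh5, Kdr, Emcn and Cldn5), the myeloid marker Lyz2 and the fibroblast marker Lum were at 0 in all libraries. Other genes of these lists were read in every library, Pecam1 at 1.3 to 6.4 and Egfl7 at 1.6 to 11.7 for endothelial cells, and Cd74 at 72.7 to 113.5, H2-Aa at 13.8 to 47.6 and H2-Ab1 at 26.0 to 36.8 for Langerhans and myeloid cells. The summed level of 8 sebaceous gland genes was 1614 to 1953 in control and 623 to 926 in p16 libraries, with 6 of the 7 tested called lower. Of 10 hair-follicle genes 6 were called lower and none higher, and their summed level overlapped (13357 to 19363 and 10930 to 14699). The 8 melanocyte genes summed to 138 to 549 and 51.7 to 148, with 2 of the 7 tested called lower. The fibroblast list summed to 11.6 to 27.5 in control and 42.8 to 221 in p16 libraries, and Dcn, the 1 gene of that list called higher, was at 2.6 to 10.7 and 36.2 to 203.0. Of 9 genes of differentiated keratinocytes 1 was called higher (Lor) and 2 lower (Ivl and Sbsn), and of 8 basal genes 1 was called lower (Krt15). No tested gene of the T cell, myeloid, endothelial or erythroid lists was called, nor any of 12 genes of the dissociation response. In sorted cells measured in bulk, a shift in the mix of follicle, gland and surface cells and a shift in RNA per cell cannot be told apart, and the part of these marker genes in the results below was not tested.

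HIF dimers bind the core letters ACGTG or GCGTG. RefSeq promoters on GRCm38.p6, from 250 bases before to 50 after the start, were at hand for 40 of the 43 genes (not for Slc2a3, Epas1 and Ndrg1). ACGTG, searched on both strands, was in a promoter of 28 of the 40 genes (70.0%), beside 28.8% of the 9717 tested genes and 21.8% of all 27025 genes with a listed promoter. GCGTG was in a promoter of 28 of 40 genes (70.0%), beside 56.3% of the tested genes and 35.2% of all. Many of these genes are textbook HIF targets, and the list was drawn up with that known. Among the 8 members higher at an unadjusted p under 0.05, 7 held ACGTG (all but Gpi1), among the 4 lower with a promoter 1 did (Slc16a1), and among the other 28 with a promoter 20 did. GCGTG was spread otherwise, in 6 of those 8, in all 4 of the lower members and in 18 of the 28. ACGTG overlaps the E-box CACGTG, which other factors bind and which counts on both strands. The matches are a description of letters and not of binding. The 250 bases before the start are given here for the gene that was called (Slc16a1), the HIF target nearest the threshold (Vegfa), a prolyl hydroxylase and a collagen hydroxylase that were higher at an unadjusted p (Egln3 and P4ha2), and a glycolytic gene whose groups overlapped (Ldha), 5′ to 3′ on the coding strand with ACGTG or its reverse complement in capitals. No annotated GENCODE M21 exon overlaps these windows, those of P4ha2 and Ldha are intronic to longer transcripts of their own gene, and the first listed start was used where there were 2.
Slc16a1, chr3:104638414-104638663, plus strand: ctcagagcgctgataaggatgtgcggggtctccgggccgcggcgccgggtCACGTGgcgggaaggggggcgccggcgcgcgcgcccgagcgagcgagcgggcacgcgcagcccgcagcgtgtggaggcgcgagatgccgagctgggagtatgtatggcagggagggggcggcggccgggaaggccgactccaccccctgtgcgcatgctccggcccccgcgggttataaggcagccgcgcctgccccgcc
Vegfa, chr17:46032378-46032627, minus strand: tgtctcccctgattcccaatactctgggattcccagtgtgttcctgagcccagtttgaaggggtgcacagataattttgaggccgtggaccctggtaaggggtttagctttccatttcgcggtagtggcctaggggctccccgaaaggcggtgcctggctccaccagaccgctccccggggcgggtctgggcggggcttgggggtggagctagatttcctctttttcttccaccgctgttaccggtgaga
Egln3, chr12:54203875-54204124, minus strand: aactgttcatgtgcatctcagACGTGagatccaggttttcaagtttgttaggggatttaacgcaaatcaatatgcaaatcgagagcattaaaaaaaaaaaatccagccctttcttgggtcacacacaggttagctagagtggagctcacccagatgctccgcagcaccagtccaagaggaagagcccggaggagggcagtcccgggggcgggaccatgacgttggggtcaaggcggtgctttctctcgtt
P4ha2, chr11:54100674-54100923, plus strand: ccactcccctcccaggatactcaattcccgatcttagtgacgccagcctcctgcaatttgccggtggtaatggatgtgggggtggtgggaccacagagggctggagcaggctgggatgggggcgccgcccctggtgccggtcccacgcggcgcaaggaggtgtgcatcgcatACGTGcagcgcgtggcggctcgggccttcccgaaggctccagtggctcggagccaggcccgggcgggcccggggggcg
Ldha, chr7:46845554-46845803, plus strand: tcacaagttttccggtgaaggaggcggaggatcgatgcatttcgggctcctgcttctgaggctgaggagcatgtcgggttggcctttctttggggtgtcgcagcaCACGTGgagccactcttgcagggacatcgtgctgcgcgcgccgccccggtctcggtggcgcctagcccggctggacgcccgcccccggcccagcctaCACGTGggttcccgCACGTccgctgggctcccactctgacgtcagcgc
Slc16a1 held 2 matches, both from 1 CACGTG about 200 bases before the start, and Ldha held 5, from CACGTG at 2 places and CACGT at 1 more. Egln3 and P4ha2 held 1 each. The window of Vegfa held none, while its other listed promoter, chr17:46025114-46025413, held 1.

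Glucose enters keratinocytes mainly through Slc2a1 (GLUT1). Its normalized values were 310.8, 304.2, 345.8 and 249.0 in control and 300.6, 321.7, 304.1 and 397.9 in p16 replicates 1 to 4. The groups overlapped, and the log2 fold change was 0.13 with a 95% confidence interval of -0.13 to 0.39 (adjusted p by limma = 0.683). Slc2a3 (GLUT3), read 5 to 12 times in each library, had a log2 fold change of -0.13 (-0.76 to 0.49). Neither transporter differed detectably.

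Of the 14 glycolytic enzymes from hexokinase to pyruvate kinase, none was called, the median log2 fold change was 0.06 and the range was -0.44 to 0.29. The enzyme at the low end was Hk2, the inducible hexokinase. Its values were 80.9, 34.7, 84.4 and 62.6 in control and 40.0, 44.5, 47.0 and 51.8 in p16 libraries. Control replicate 2 was the lowest of all 8 libraries, below every p16 library. The adjusted p by limma was 0.407 with it and 0.0433 without it, at a log2 fold change of -0.71. This library was left out for its value, and that fit was the only 1 of 18 alternatives in which Hk2 passed. Without control replicates 1 and 3 the adjusted p by limma was 0.688 and 0.661. Hk1, the constitutive hexokinase, had a log2 fold change of 0.18 (-0.03 to 0.40). Gpi1, which converts glucose phosphate to fructose phosphate, had values of 819.7, 865.0, 1087.4 and 1023.6 in control and 1069.8, 988.4, 1098.6 and 1490.7 in p16 libraries. It was 1.22 times higher in mean, with overlapping groups and an adjusted p by limma of 0.307, and p16 replicate 4 alone lay well above the controls. The log2 fold change was 0.28 with that library and 0.16 without it. The phosphofructokinases Pfkl, Pfkm and Pfkp, which commit sugar to glycolysis, had log2 fold changes of 0.23, 0.29 and 0.00, and the aldolases Aldoa and Aldoc of -0.12 and -0.02. Tpi1, which interconverts the triose phosphates, had 0.09.

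The 5 enzymes from triose phosphate to pyruvate were flat between the groups. Gapdh, often used as a reference gene, had values of 1028.9, 1094.7, 1265.3 and 1272.7 in control and 1105.8, 1139.1, 1032.1 and 1503.8 in p16 libraries. Its log2 fold change was 0.03 (-0.23 to 0.29), and its sign turned to -0.09 without p16 replicate 4 and to -0.03 without control replicate 1. Pgk1, Pgam1, Eno1 and Pkm, which lead on to pyruvate with the gain of ATP, had log2 fold changes of 0.19, 0.10, -0.01 and -0.05. The interval for Pkm, -0.30 to 0.20, was narrow, whereas that for Pgk1, -0.49 to 0.88, was wide. Aldoa, Gapdh, Pgk1, Pgam1 and Ldha each have 2 pseudogenes of that name in GENCODE M21, and pseudogenes under other names were not counted for any member. Reads of near-identical copies may have been lost or split in counting, so levels are not compared between genes.

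Lactate handling held the 1 called gene. Slc16a1 (MCT1), a carrier that moves lactate and other monocarboxylates across the membrane, had values of 72.7, 53.9, 93.5 and 76.4 in control and 33.6, 47.6, 47.0 and 47.7 in p16 libraries. Every p16 library lay below every control library. The p16 mean, 44.0 ± 6.92 (SD, n = 4), was 0.59 times the control mean, 74.1 ± 16.2 (SD, n = 4). The log2 fold change was -0.73 ± 0.19 (SE), with an interval of -1.13 to -0.32 and an adjusted p by limma of 0.0463. The exact two-sided permutation test gave 0.0286, the smallest p that 4 against 4 samples allow. The call stood close to the threshold and held in 8 of 18 alternatives, among them edgeR (adjusted p = 0.0291) and DESeq2 (adjusted p = 0.0210). With 1 library left out it was lost in 6 of 8 fits, with log2 fold changes of -0.61 to -0.77. The adjusted p by limma was then 0.151 without the library labelled p16 replicate 1, which had the lowest value, 0.0610 and 0.0771 without p16 replicates 2 and 3, and 0.119, 0.141 and 0.108 without control replicates 1, 3 and 4.

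Ldhb, the lactate dehydrogenase subunit that favours turning lactate back into pyruvate, had values of 255.9, 246.4, 238.0 and 229.2 in control and 180.7, 228.0, 141.0 and 138.1 in p16 libraries. The groups did not overlap, though p16 replicate 2 came within 2 units of the lowest control. The mean was 0.71 times that of controls, at a log2 fold change of -0.52 ± 0.14 (SE), and the gene did not pass (adjusted p by limma = 0.0653). The exact permutation test gave 0.0286. Ldha, the subunit that favours lactate and a classical HIF target, had 1611.3, 1579.8, 2159.0 and 2059.5 in control and 1866.2, 1941.0, 1674.9 and 2538.2 in p16 libraries. These groups overlapped widely, with a log2 fold change of 0.11 (-0.18 to 0.41), and -0.01 without p16 replicate 4. Slc16a3 (MCT4), the carrier that exports lactate from glycolytic cells, reached 346.1 in p16 replicate 4 and lay between 120.6 and 147.1 in the other p16 libraries, within the control range of 86.8 to 170.4. Its log2 fold change was 0.46 with that library and 0.12 without it.

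The bifunctional PFKFB enzymes set the level of a fructose bisphosphate that activates phosphofructokinase and is not itself an intermediate of glycolysis. All 3 had positive log2 fold changes (0.23 to 0.84), and none was called. Pfkfb3, the isoform with the strongest kinase activity and a HIF target, had values of 22.3, 16.7, 20.0 and 36.7 in control and 48.0, 26.5, 31.9 and 75.6 in p16 libraries. The mean was 1.90 times that of controls, but control replicate 4 lay above p16 replicates 2 and 3 (adjusted p by limma = 0.183). Without p16 replicate 4 its log2 fold change was 0.57 in place of 0.84. Pfkfb2 had 0.44 (-0.09 to 0.98), and Pfkfb4, with under 15 reads in every library, 0.23 (-0.55 to 1.01).

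The pyruvate dehydrogenase kinases hold back the use of pyruvate within mitochondria by switching off pyruvate dehydrogenase. Pdk1, a HIF target, was level between the groups, with a log2 fold change of 0.03 (-0.26 to 0.31), as were Pdk2 (-0.06) and Pdk3 (0.08). Pdk4, the isoform linked to fasting and fatty acid use, had values of 17.8, 12.8, 13.4 and 18.3 in control and 4.0, 7.0, 9.8 and 7.4 in p16 libraries. The groups did not overlap, and the p16 mean was 0.45 times the control mean. Its log2 fold change of -1.08 ± 0.30 (SE) did not pass (adjusted p by limma = 0.0696), at 5 to 11 reads in each p16 library.

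Among the 6 genes of the HIF dimer and of oxygen sensing none was called, and 2 were higher and 1 lower at an unadjusted p under 0.05. Over all genes tested, 7.02% were higher and 8.93% lower at that level. Hif1a, the inducible alpha subunit, had values of 327.1, 300.3, 373.3 and 252.1 in control and 299.8, 303.7, 292.6 and 254.9 in p16 libraries. The p16 values lay inside the control range, and the log2 fold change was -0.11 (-0.37 to 0.15). HIF alpha is regulated mainly as protein, which was not measured. Epas1 (HIF-2 alpha), the second alpha subunit, had 211.4, 256.7, 147.8 and 158.9 in control and 140.7, 152.2, 129.5 and 74.0 in p16 libraries. Only p16 replicate 2 lay above a control, and the log2 fold change of -0.65 ± 0.22 (SE) did not pass (adjusted p by limma = 0.130). It was -0.42 without p16 replicate 4, the lowest library. Their partner Arnt had 0.05 (-0.28 to 0.37), and Vhl, which takes HIF alpha to the proteasome, -0.21 (-0.66 to 0.25).

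Both prolyl hydroxylases of the list, themselves HIF targets that feed back on HIF, had positive log2 fold changes that did not pass. Egln3 had values of 477.7, 422.2, 435.1 and 450.7 in control and 773.2, 552.8, 477.0 and 614.2 in p16 libraries. The groups overlapped by 1 pair, p16 replicate 3 lying just under control replicate 1, and the library labelled p16 replicate 1 was the highest. Its mean was 1.35 times that of controls, at a log2 fold change of 0.41 ± 0.13 (SE) (adjusted p by limma = 0.0951). Egln1 had 305.6, 350.4, 438.5 and 366.7 in control and 425.4, 420.8, 438.0 and 666.0 in p16 libraries. There p16 replicate 4 was far above the rest, and the log2 fold change was 0.40 with it (adjusted p by limma = 0.189) and 0.24 without it.

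**Figure D2:**
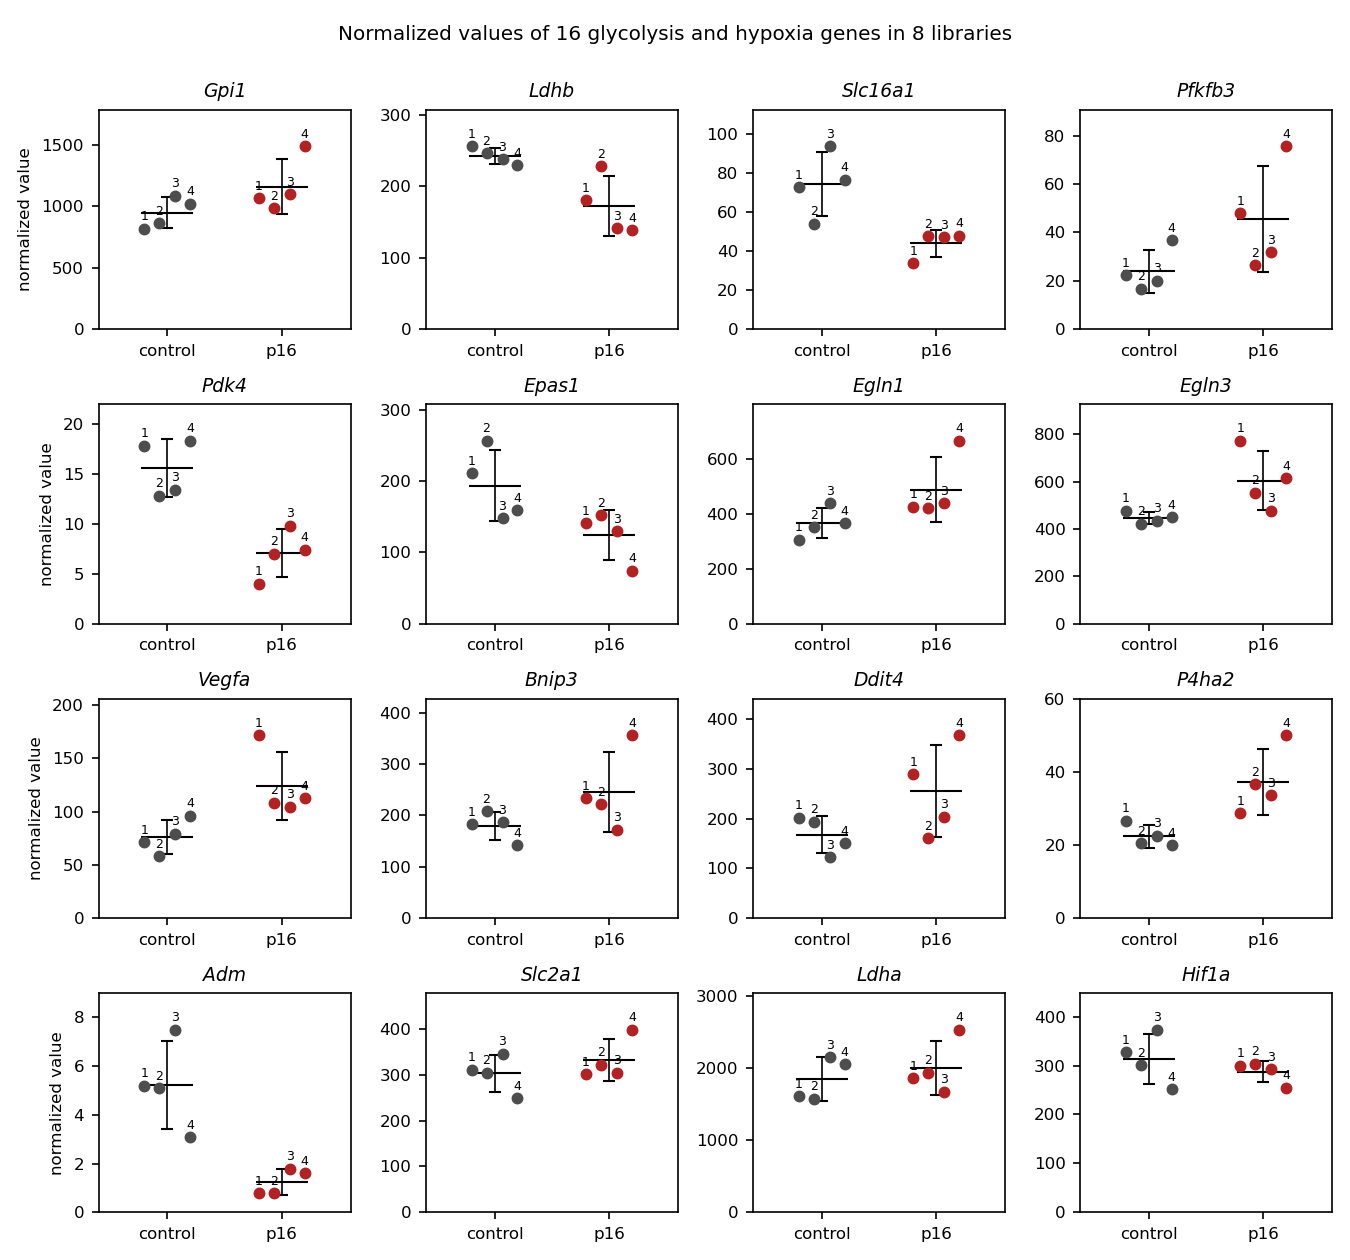
Normalized value (y axis, from 0) of 16 genes in each control (grey) and p16 (red) library, numbered by replicate, with the mean and SD of 4 libraries in black. The p16 libraries lie wholly below the controls in Ldhb, Slc16a1, Pdk4 and Adm and wholly above them in Vegfa and P4ha2, while Slc2a1, Ldha and Hif1a overlap.

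Of the 10 genes listed under HIF targets, 8 had positive log2 fold changes and none was called. Their median was 0.23 (0.12 without p16 replicate 4), beside 0.00 (0.01 without it) over all genes tested. Ldha, Pfkfb3, Pdk1, Egln1 and Egln3, also HIF targets, were listed under other roles and are not among the 10. Vegfa, the vessel growth factor that keratinocytes secrete, had values of 71.2, 57.8, 79.3 and 96.3 in control and 171.9, 108.5, 104.6 and 112.6 in p16 libraries. Every p16 library lay above every control, and the one labelled p16 replicate 1 was far above the others. The p16 mean of 124 ± 31.8 (SD, n = 4) was 1.63 times the control mean of 76.2 ± 16.1 (SD, n = 4). The log2 fold change was 0.69 ± 0.18 (SE), with an interval of 0.30 to 1.09, and the adjusted p by limma of 0.0521 missed the threshold. It was 0.0537 by edgeR and 0.0209 by DESeq2, 0.170 by limma without the library labelled p16 replicate 1 and 0.0454 without p16 replicate 4. The exact permutation test gave 0.0286.

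P4ha2, a subunit of the hydroxylase that matures collagen, was the other member whose p16 libraries all exceeded the controls. It had 26.7, 20.5, 22.6 and 19.9 in control and 28.8, 36.7, 33.7 and 50.2 in p16 libraries, a mean 1.67 times higher (log2 fold change 0.69 ± 0.21 (SE), adjusted p by limma = 0.101). Its paralog P4ha1 had a log2 fold change of 0.19 (-0.15 to 0.52). Ddit4 (REDD1), a stress-induced inhibitor of mTORC1, had 201.8, 193.8, 122.8 and 151.3 in control and 289.4, 160.8, 203.9 and 368.3 in p16 libraries, with p16 replicate 2 inside the control range (log2 fold change 0.56, adjusted p by limma = 0.216). Bnip3, a receptor for the removal of mitochondria, had 182.5, 207.9, 186.2 and 142.1 in control and 232.7, 221.7, 172.0 and 356.0 in p16 libraries, with p16 replicate 3 inside the control range (log2 fold change 0.41, adjusted p by limma = 0.285). Without p16 replicate 4 the log2 fold changes were 0.54 for P4ha2, 0.36 for Ddit4 and 0.22 for Bnip3.

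Adm, which encodes the vasodilator peptide adrenomedullin, stood on the other side. Its values were 5.2, 5.1, 7.5 and 3.1 in control and 0.8, 0.8, 1.8 and 1.6 in p16 libraries, without overlap. These rest on 2 to 9 reads in each control library and on 1 or 2 in each p16 library, 22 reads in all against 6. Scaled for depth, the ratio of control to p16 was 4.49, with an exact 95% counting interval of 1.77 to 13.5 that covers counting error only. The adjusted p by limma was 0.0676. The remaining targets, Car9 (a carbonic anhydrase), Ankrd37 and Higd1a (a mitochondrial protein), had log2 fold changes of 0.14, 0.20 and 0.27, each with an interval that included 0. Without p16 replicate 4 these were -0.16, 0.00 and 0.12.

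Ndrg1, a hypoxia-responsive gene of epithelial differentiation, is named here for its spread, which was noticed after its values were seen. It had 267.1, 283.6, 266.4 and 224.6 in control and 214.3, 180.4, 149.0 and 416.9 in p16 libraries. Of the p16 libraries, 3 lay below every control and p16 replicate 4 lay above all of them. Its log2 fold change was -0.23 with all libraries (adjusted p by limma = 0.714) and -0.53 without p16 replicate 4 (adjusted p by limma = 0.0306).

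The same library was the highest of all 8 in 27 of the 43 genes, or 62.8%, beside 18.0% of all genes tested, and no other library was the highest in more than 4. This is a description of libraries that were picked out by their values, with no test. It was the highest p16 library in all 9 enzymes of upper and all 5 of lower glycolysis, in both glucose transporters and in 8 of the 10 HIF targets, but in 1 of the 4 pyruvate dehydrogenase kinases and 2 of the 6 oxygen-sensing genes. The median deviation of the 43 genes from the mean of their own group was 0.28 on the log2 scale in p16 replicate 4, between -0.12 and -0.07 in the other p16 libraries and between -0.08 and 0.08 in the controls. Over all genes tested this median lay between 0.00 and 0.01 in each library. In HIF targets it reached 0.51 and in upper glycolysis 0.34. Without this library the median log2 fold change of the 43 genes was -0.01, and 3 members in place of 8 were higher at an unadjusted p under 0.05 (6.98%, beside 6.49% of all genes tested), while 7 were lower (16.3%, beside 8.78%). By limma 1 member was then called higher (Vegfa) and 2 lower (Slc16a1 and Ndrg1), or 2.33% and 4.65%, beside 1.53% and 2.68% of all genes tested. Without the library labelled p16 replicate 1 none was called, beside 0.539% higher and 1.50% lower of all genes tested. At an unadjusted p, 5 members (11.6%) were then higher and 5 lower, beside 5.18% and 7.37% of all genes tested. Without replicate 3 of both groups none was called either, beside 0.517% and 1.23%, while 11 members (25.6%) were higher and 5 (11.6%) lower at an unadjusted p, beside 5.78% and 7.56%. The groups, then of 3 libraries, did not overlap in 7 higher and 5 lower members, or 16.3% and 11.6%, beside 8.61% and 9.37% of all genes tested.

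**Figure D3:**
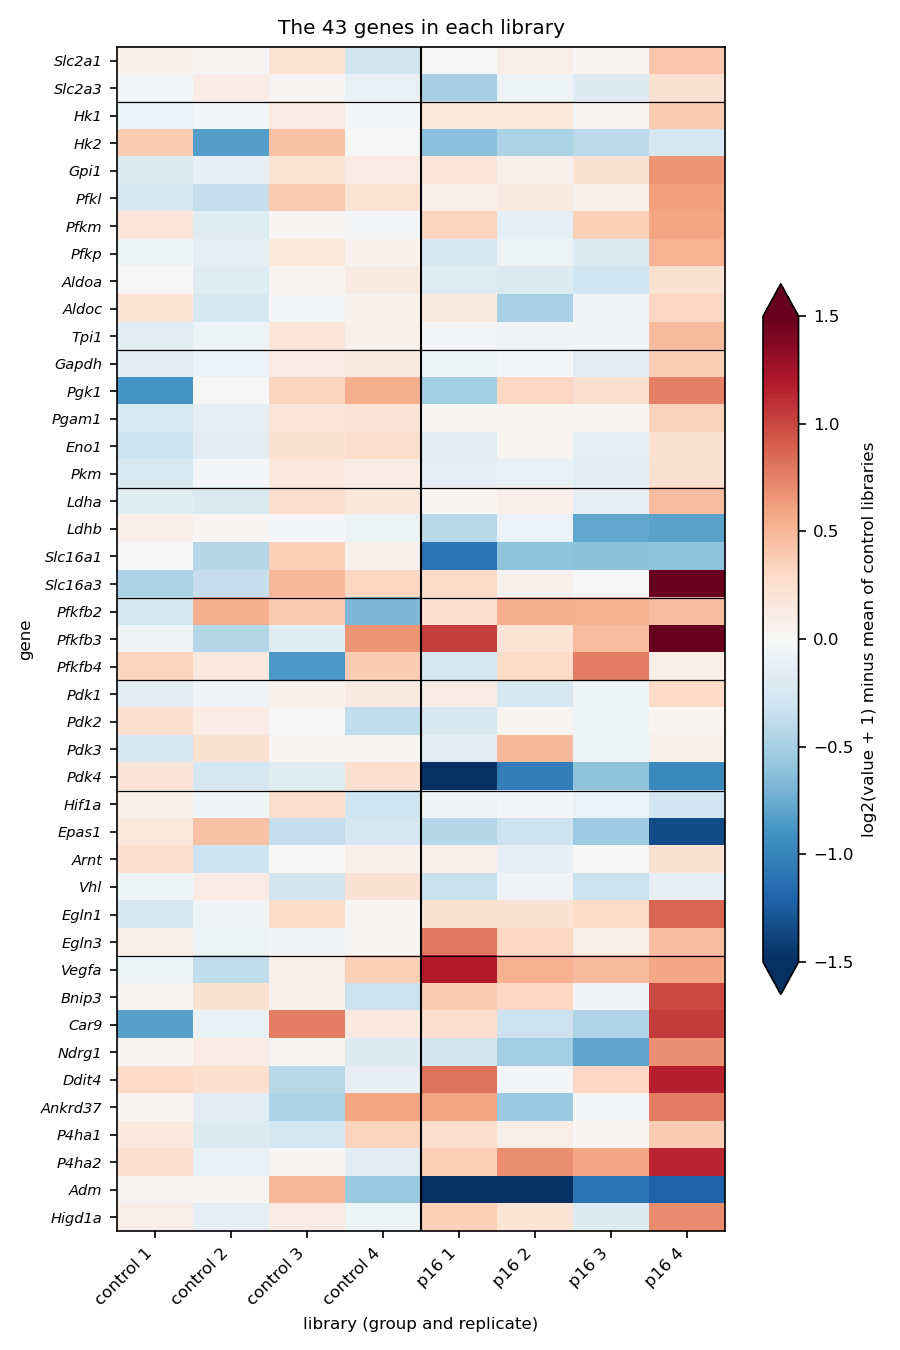
Each of the 43 genes (rows, in the order of their roles, with lines between roles) in each library (columns), as log2(normalized value + 1) minus the mean of the control libraries. The column of p16 replicate 4 is red in most glycolytic enzymes and HIF targets. Hk2, Ldhb, Slc16a1, Pdk4, Hif1a, Epas1, Vhl and Adm lie below the control mean in every p16 library. For Ldhb, Hif1a and Vhl the blue is faint in some libraries.

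**Figure D4:**
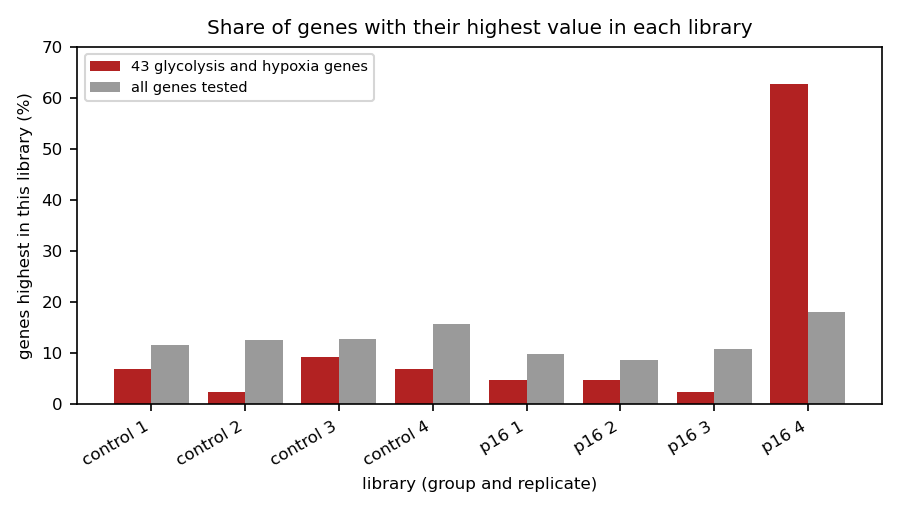
Share of the 43 genes (red) and of all 12782 genes tested (grey) that had their highest value in a given library (y axis, percent). p16 replicate 4 holds 62.8% of the 43 genes and 18.0% of all genes tested.

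The rest of the pathway was read from 5 lists with 125 further genes, of which 103 were tested. Their median log2 fold change was 0.04, 1 was called higher and 4 lower, beside the 1.24% and 2.61% of all genes tested. No gene was called among 29 other genes of glucose metabolism, 10 of the pyruvate carrier and pyruvate dehydrogenase or 7 of the pentose phosphate pathway. All 4 lower genes belonged to HIF regulators and targets. Cited2, which competes with HIF alpha for its coactivators, had 127.6, 121.9, 109.4 and 110.0 in control and 64.0, 94.5, 70.9 and 65.8 in p16 libraries (log2 fold change -0.67, adjusted p by limma = 0.0177). Angptl4, a secreted inhibitor of lipoprotein lipase, had 63.1, 44.9, 76.0 and 62.6 in control and 12.8, 35.1, 20.4 and 7.4 in p16 libraries (-1.83, adjusted p by limma = 0.00900). Insig2, which holds back sterol synthesis, had 303.4, 313.1, 384.2 and 336.1 in control and 208.7, 203.8, 178.2 and 172.7 in p16 libraries (-0.80, adjusted p by limma = 0.000705). In all 3 the p16 libraries lay below every control, and the call held in 6 of 8 fits without 1 library for Cited2 and in 8 of 8 for Angptl4 and Insig2. Angptl4 and Insig2 act in lipid metabolism, and the summed sebaceous gland genes were lower in the same libraries, as given above. A link between these was not tested. Bnip3l, the paralog of Bnip3 in mitochondrial removal, was also lower (log2 fold change -0.42, adjusted p by limma = 0.0432), a call kept in 1 of 8 fits without 1 library. Its direction was opposite to the 0.41 of Bnip3, which did not pass. The gene called higher was the transcription factor Zfp395 (0.38, adjusted p by limma = 0.0459), a call kept in 0 of 8 fits without 1 library. The largest differences with an unadjusted p under 0.05 among the others were those of Slc2a4 (1.17) and Slc2a9 (0.99), which carry sugar or urate, and Bpgm (0.79), which makes bisphosphoglycerate. They were followed by Pcx (-0.71), which carboxylates pyruvate, Hmox1 (-0.70), which degrades heme, and the repressor Bhlhe40 (0.54), with adjusted p by limma of 0.0570 to 0.209 for these 6. Few reads lie behind Slc2a4, 3 to 5 in a control and 12 to 17 in a p16 library. The same holds for Slc2a9, at 2 to 13 and 9 to 20 reads, and its groups overlapped.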

How the data were processed

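GFP+ keratinocytes of 4 control and 4 p16 samples were profiled by mRNA-seq, and 13 samples of a second profiling were not analysed here. Per the labels, the libraries followed CEL-Seq, which reads the 3′ ends of transcripts, and the protocol is worded differently for replicate 3 in each group. The submitters' processing notes name TopHat2, HTSeq and DESeq2, and the paper gives GRCm38; versions and annotation are not given in the sources used here. The deposited signal is the number of reads on a gene, which the authors scaled with 1 size factor per library. A further 6 columns with group means and the authors' own comparison were not used.

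Low values came in steps of what 1 read is worth, and in these steps 100% of the values were whole reads (within 0.1 deposited units). The comparison of the groups used limma 3.58.1 in R 4.3.3 (eBayes, trend) on log2(value + 1), for genes whose mean value reached 1, and p-values were adjusted over all of them by Benjamini-Hochberg. Folds on this scale understate the change of low genes. The difference in means of single genes was also tested by exact permutation (two-sided). edgeR 4.0.16 and DESeq2 1.42.0 were run on the recovered reads as alternatives. The fits were also run on simulated data in which no library stood apart from its group, so that run cannot show how p16 replicate 4 affects them. Coordinates and exons are from GENCODE M21, promoters from RefSeq.

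The members, the pathway and marker lists and the tests were chosen with earlier results of these data known. Values of every sample are given for members with an adjusted or unadjusted p under 0.05 or with groups that do not overlap, and for Slc2a1, Hk2, Gapdh, Ldha, Ldhb, Hif1a and Vegfa. Other pathway genes are named where called, with the 6 largest others at an unadjusted p under 0.05. Nothing says which of 3 independent experiments a sample came from, so p-values measure the spread between these pooled samples.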

Additional observations from a re-analysis of the deposited data

Results flagged for a closer look

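In each group of 4 libraries, the highest or lowest value of each of the 43 genes was set against the others by Dixon's test, in which chance alone picks out about 1 in 20 groups. It picked out 8 of the 86 groups tested, all of them in p16 libraries. The same libraries enter all 43 genes, so the groups are not independent. The count of 8 cannot be held against 1 in 20.

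Of these, 6 were high values of p16 replicate 4. They were Pfkl at 293.5 (other p16 libraries 202.2 to 210.0), Tpi1 at 1299.9 (905.3 to 914.7), Pgam1 at 2024.3 (1610.3 to 1636.5), Pkm at 4136.5 (3122.8 to 3263.6), Slc16a3 at 346.1 (120.6 to 147.1) and Egln1 at 666.0 (420.8 to 438.0). The other 2 were in the library labelled p16 replicate 1. Its human p16 transgene, at few reads, was in the control range, while its Cd34 was like that of the other p16 libraries. Slc16a1 was low there at 33.6 (47.0 to 47.7 in the other p16 libraries), and Vegfa was high at 171.9 (104.6 to 112.6).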

How the results depend on the processing

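No member passed in more than 8 of 18 alternatives (Slc16a1). Members called higher numbered 0 as reported, 1 with total count scaling, 1 by DESeq2, 2 by edgeR without a filter, 3 with a replicate block and 0 to 1 with 1 library left out. Members called lower numbered 1 as reported, 0 with a pseudocount of 0.1, 0 with total count scaling, 0 without replicate 3 of both groups, 3 with the replicate block and 0 to 2 with 1 library left out. At an unadjusted p, 8 and 5 passed. Over all genes, 159 higher and 334 lower calls became 69 to 196 and 177 to 343 with 1 library left out (fewest higher without the library labelled p16 replicate 1, fewest lower without control replicate 1), 66 and 157 without replicate 3 of both groups, and 897 and 1141 at an unadjusted p. The median of the 43 genes moved between -0.01 and 0.14. Among 18 genes followed singly, Gapdh changed sign with 1 library left out (-0.09 to 0.09, lowest without p16 replicate 4; 0.00 without control replicate 2), as did Ldha (-0.01 to 0.19). The cause was not tested. Whether samples with the same replicate number belong together is not known, and the main fit did not pair them. Deviations of samples with the same number correlated at 0.05, 0.00, 0.05 and 0.08. p16 replicates 3 and 4 but not 1 and 2 correlated best with the control of their own number. With 4 samples a group, these correlations cannot show whether samples shared an experiment. The block called Vegfa, Egln3 and Pfkfb3 higher (216 genes in all) and Slc16a1, Ldhb and Epas1 lower (392 in all). At 1 or 2 reads in a p16 library, Adm is near the limit of what this depth can show.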
